A study of Mus musculus with 8 samples.

Results

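The results concern p30-expressing HPC-7 cells treated with LPS for 2 h and the same cells left untreated (UT), compared by H3K27ac HiChIP. These groups hold 4 of the 8 libraries of the series, 2 for p30 LPS and 2 for p30 UT, and were chosen by their labels alone. The other 4 libraries are p42 LPS and p42 UT. HPC-7 is a mouse hematopoietic progenitor cell line with very little endogenous CEBPA. The study's methods describe retroviral HPC-7 lines that carry the truncated CEBPA isoform p30 or the full-length isoform p42. In one form the isoform is fused to ERT2, which largely keeps it outside the nucleus until 4-hydroxytamoxifen is given on the day before an experiment, and in another it is not fused and is constitutively active. The labels of these libraries name only the isoform and the treatment, not which form was used. Both p30 groups share the transgene, the serum and SCF medium and the H3K27ac antibody, and differ by LPS (Escherichia coli O111:B4, 100 ng/mL, 2 h). The labels do not say whether the p30 libraries come from more than 1 transduction. The libraries are from bulk cultures, so a change in every cell and a change in a share of the cells cannot be told apart.

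In the HiChIP used here, an antibody pulled down fixed and digested chromatin with a chosen mark, and DNA fragments that touched in it were then ligated. The mark was the acetylation of histone H3 at lysine 27, found at active promoters and enhancers. The loop caller, FitHiChIP, lists bin pairs (bins of 5 kb) whose ligation contacts exceed what distance and coverage predict, and each listed pair is called a loop here. LPS binds CD14 and the TLR4 and MD-2 receptor complex, and the signal reaches IkB kinases, which free NF-kB from IkB proteins, and MAP kinases, which feed AP-1 factors such as Fos and Jun. Early targets of NF-kB include its own inhibitors Nfkbia and Tnfaip3, which limit the response.

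The 2 replicates of each group were pooled in the deposited loop lists, so each group gives 1 list, there is no spread between replicates, and no test of LPS against UT was possible. Differences below compare these pooled libraries, and errors cover counting only. The UT list held 80489 loops and the LPS list 94609, from 17976716 and 14503330 modelled contacts (the total that the loop caller fitted). Of these contacts, 12.7% in UT and 18.2% in LPS lay in listed loops. All 10 progenitor markers checked (Kit, Cd34, Gata2, Tal1, Lyl1, Lmo2, Runx1, Erg, Fli1 and Myb) had a loop at their start site in both lists. Among 24 markers of T cells, B cells, fibroblasts, epithelium, endothelium, neurons and liver, 6 had a start-site loop in UT and 5 in LPS. Cd3d, Cd3e, Cd3g, Epcam, Col1a1 and Alb had none. Coverage is the number of contacts with an end in a bin. Its ratio of LPS over UT was centred on the median of the 37092 bins that overlap an H3K27ac peak and are in both lists, where the uncentred median was -0.13 on the log2 scale. Scaling by modelled contacts instead moves every centred value up by 0.18, so all values are relative to the median bin. Mean coverage of bins with a peak was 3.95-fold that of other bins in UT and 5.70-fold in LPS. The part of this gap in the ratios below was not tested.

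The start sites with the highest coverage ratios after LPS included those of NF-kB pathway genes and of the feedback inhibitor Tnfaip3. Among the 10 highest, Relb, Tnfaip3 and Dennd4a were among those with a match to the NF-kB motif in the 250 bases before the start site. These are printed to show the match, with Nfkbia added as the classical IkB target of NF-kB. Each run is the 250 bases before the start site in GRCm39, 5′ to 3′ on the gene's strand, and capitals mark the motif match found on either strand.
Relb, chr7:19363424-19363673, minus strand: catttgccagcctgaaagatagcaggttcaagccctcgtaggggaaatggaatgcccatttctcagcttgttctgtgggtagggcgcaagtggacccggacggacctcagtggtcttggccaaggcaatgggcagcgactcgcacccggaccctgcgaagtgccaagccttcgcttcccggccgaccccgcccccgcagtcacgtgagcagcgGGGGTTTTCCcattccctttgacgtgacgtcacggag
Tnfaip3, chr10:18891187-18891436, minus strand: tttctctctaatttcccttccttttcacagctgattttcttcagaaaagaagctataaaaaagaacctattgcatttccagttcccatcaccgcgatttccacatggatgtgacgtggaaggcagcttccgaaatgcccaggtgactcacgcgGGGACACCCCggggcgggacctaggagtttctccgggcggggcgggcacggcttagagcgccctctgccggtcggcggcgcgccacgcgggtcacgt
Nfkbia, chr12:55539433-55539682, minus strand: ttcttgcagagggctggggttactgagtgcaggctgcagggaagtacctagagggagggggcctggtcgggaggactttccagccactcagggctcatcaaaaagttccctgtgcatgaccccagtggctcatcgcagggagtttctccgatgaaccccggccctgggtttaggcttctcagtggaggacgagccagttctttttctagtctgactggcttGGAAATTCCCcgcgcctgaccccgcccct
Dennd4a, chr9:64718355-64718604, plus strand: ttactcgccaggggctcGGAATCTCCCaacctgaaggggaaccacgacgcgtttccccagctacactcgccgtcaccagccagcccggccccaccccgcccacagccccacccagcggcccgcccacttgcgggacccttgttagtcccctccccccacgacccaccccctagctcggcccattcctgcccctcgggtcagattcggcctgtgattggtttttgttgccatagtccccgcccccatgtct
The match starts 37 bases before the start site in Relb, 97 in Tnfaip3, 29 in Nfkbia and 233 in Dennd4a. Of all 21738 protein-coding start sites, 4.23% had the motif in this window. It was found in 4 of the 10 start sites with the highest coverage ratio, in 0 of the 10 with the lowest, and in 3 of the 15 genes of the NF-kB list. The AP-1 motif (TGANTCA) was found in 6.18% of all windows, in 2 of the 10 highest, 1 of the 10 lowest and 2 of the 15 list genes. The C/EBP motif (TTGCNNAA) was found in 9.35% of all windows and in 1, 1 and 1 of these sets. The windows of Bcl3, Ikbke and Nfkb2 held no match to the NF-kB motif, which says only that these letters are not in them.

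Of the 37092 peak bins, 2.51% (932) had at least 1.5-fold higher coverage after LPS and 0.674% (250) at least 1.5-fold lower. The higher bins were 78.8% of those past 1.5-fold, and 98.7% (2569 higher, 34 lower) when scaled by modelled contacts. Protein-coding start sites lay in 15.7% of the higher bins, in 6.00% of the lower bins and in 16.8% of all peak bins, so the share among the higher bins was near that of all peak bins. A gene whose start-site bin was missing from the UT or the LPS list has no ratio here or in the gene lists below. Among 7034 genes with a start site in one of the 37092 peak bins, 2.22% (156) were at least 1.5-fold higher and 0.213% (15) at least 1.5-fold lower. Of these genes, 63.3% had a ratio above 0, against which the counts above 0 given for lists below are to be read. The ratio also followed the coverage itself. From the lowest to the highest decile of bins by mean coverage, the median log2 ratio went from -0.12 to 0.18, so the ratio was also set against the running median of bins of like coverage. The 281 bins of chromosome X had a median of 0.21, with 18 past 1.5-fold higher and 0 lower.

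The NF-kB list had the highest median of the 15 gene lists. Of its 11 members with a start site in a peak bin, 8 were at least 1.5-fold higher, 0 were lower, and the median log2 ratio was 0.64, beside 0.07 for all genes. Bcl3, an atypical IkB protein that acts in the nucleus with p50 and p52 dimers, had the highest ratio of all genes: its bin (chr7:19555001-19560000) had 3748 contacts in UT and 8675 in LPS, 2.53-fold (log2 1.34, counting SE 0.028). Ikbke, an IkB-kinase-related kinase, had 4535 and 10327, 2.48-fold. Relb, the NF-kB subunit of the non-canonical pathway, had 3981 and 8834, 2.42-fold. In all 3 the LPS value was over 2-fold the UT value, against a counting SE under 0.03 on the log2 scale. Nfkb2, which encodes p100 and p52, had 4486 and 7950, 1.93-fold. Rel (c-Rel) had 4071 and 6137, and Rela (p65) 4919 and 7040. Rela was at a log2 ratio of 0.64, and at 0.50 when set against bins of like coverage, below the 1.5-fold line. Nfkbia (IkB alpha) had 2707 and 3757, and Nfkbiz (IkB zeta) 2743 and 3806, at 0.60 each. The start-site bin of Nfkb1 was not a peak bin in both lists.

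**Figure D1:**
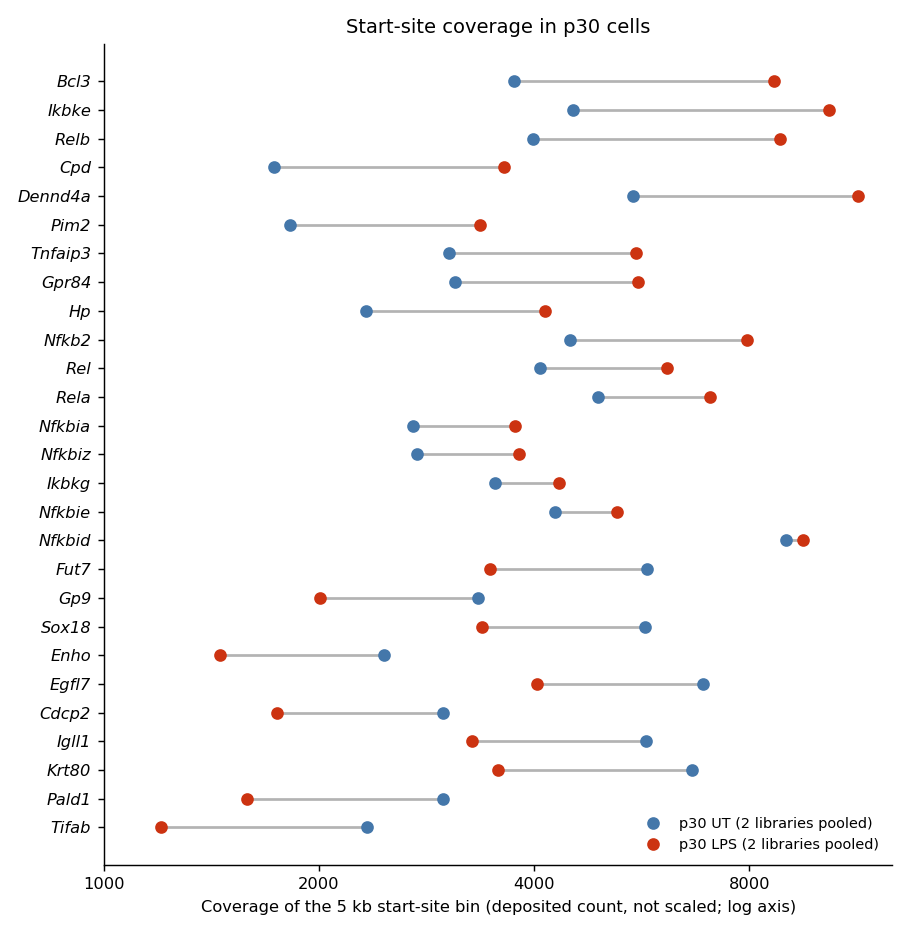
Coverage of the 5 kb start-site bin (deposited count of contacts, log axis) in the p30 UT list (blue) and the p30 LPS list (red) for the 10 genes of highest ratio, the other NF-kB list members in peak bins and the 10 genes of lowest ratio, from top to bottom. Bcl3 went from 3748 to 8675 and Tifab from 2337 to 1202, and there are no error bars because the libraries of a group were pooled.

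In the list of receptor, adaptor and kinase genes of the LPS pathway, 6 of 18 members in peak bins were at least 1.5-fold higher and 0 lower. All 18 were above 0, 17 against bins of like coverage, with a median of 0.36. Ly96, which encodes MD-2, the LPS-binding partner of TLR4, had 6454 contacts in UT and 11094 in LPS (log2 0.91). Cd14, the LPS co-receptor, had 2982 and 4463 (0.71). Map3k8 (TPL2), a kinase that links TLR4 to ERK, had 1474 and 2268 (0.75), and Traf1, a TNF receptor adaptor, 2134 and 3383 (0.79). Myd88, the adaptor of most Toll-like receptors, had 2444 and 3472 (0.63) in a bin shared with the start site of Acaa1a. Tank had 4891 and 6918 (0.63, or 0.49 against bins of like coverage). Tlr4 itself had no loop at its start site in either list.

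The list of feedback inhibitors was also mostly above 0. Of 21 members in peak bins, 17 were above 0, 5 were past 1.5-fold higher and 0 past 1.5-fold lower, with a median of 0.26. Tnfaip3 (A20), a ubiquitin-editing enzyme that stops NF-kB signaling, had 3041 and 5549 (1.99-fold). Cish had 3163 and 5198 (log2 0.84), and Socs3 2543 and 3847 (0.72), both suppressors of cytokine signaling. Dusp16, a phosphatase of JNK and p38, had 4242 and 6698 (0.78), and Birc3 (cIAP2) 4492 and 7111 (0.79). Of the others, Dusp1 stood at 0.26, Zfp36 at 0.05 and Tnip1 at -0.11, and Zfp36l2, an mRNA decay factor, had 6240 and 4342 (-0.40).

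Cytokine genes showed smaller differences at their start sites. Of 19 in peak bins, 15 were above 0 and 1, Osm (oncostatin M), was past 1.5-fold, at 5416 and 7861 (log2 0.66, or 0.51 against bins of like coverage). Ccl4 stood at 0.50, Il6 at 0.46, Ccl3 at 0.42 and Tnf at 0.33 in a bin it shares with Lta. Il1b and Cxcl2 had no start-site loop in either list, and Cxcl10 had 0 in UT and 1 in LPS. Interferon-related genes had a median of 0.23, with Gbp2 past 1.5-fold (2294 and 3685), and Irf1 at 0.18. The list of surface activation and adhesion genes, which also holds some activation-induced enzymes and transporters, had a median of 0.22. Its 2 members past 1.5-fold do not encode surface activation or adhesion proteins. They were Acod1, the mitochondrial itaconate synthase, at 1249 and 2014 (0.82), and Slc2a6, an intracellular transporter, at 6443 and 9144 (0.63, or 0.44 against bins of like coverage).

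For the AP-1 and ATF family, 14 of 18 members in peak bins were above 0, 0 passed 1.5-fold, and the median was 0.31, or 0.17 against bins of like coverage. Junb stood at 0.43, Fosb at 0.41, Atf4 at 0.34, Fos at 0.20 and Atf3 at -0.14. Other immediate early genes had a median of 0.15. Among them Gadd45b, a stress-induced regulator of p38 and JNK signaling, was past 1.5-fold (1992 and 3098, log2 0.76), while Ier3 (0.33), Egr1 (0.27), Ier2 (0.15) and Srf (0.56) were not.

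Lists of stem, C/EBP and erythroid and megakaryocyte genes had medians below 0 under the median centring. Stem and progenitor regulators had 17 of 24 members below 0, 0 past 1.5-fold either way and a median of -0.11, which turned to 0.07 when scaled by modelled contacts. Cbfa2t3 (Eto2), a corepressor of hematopoietic progenitors, had 3467 contacts in UT and 2247 in LPS (-0.50). Kit stood at -0.17, Gata2 at 0.04 and Spi1 (PU.1) at 0.10. The C/EBP family had a median of -0.09, 0.09 when scaled by modelled contacts, with Cebpe at -0.46 (4543 and 3022), Cebpa at -0.37 (2495 and 1768), Cebpd at -0.08 and Cebpb at 0.03. Granule genes had 6 members above 0 and 6 below, a median of -0.03 and 1 member past 1.5-fold higher, Cyba (5276 and 7353, 0.60, or 0.45 against bins of like coverage), a subunit of the phagocyte NADPH oxidase. Erythroid and megakaryocyte genes had a median of -0.08. Both medians turned above 0 (0.15 and 0.11) when scaled by modelled contacts. In the erythroid and megakaryocyte list Gp9, a platelet glycoprotein, was past 1.5-fold lower (3337 and 2005). Cholesterol and fatty acid genes had a median of 0.07 and markers of other cell types of 0.00, close to all genes. The 58 ribosomal protein genes in peak bins had a median of 0.15, 0.07 against bins of like coverage, and none was past 1.5-fold.

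**Figure D2:**
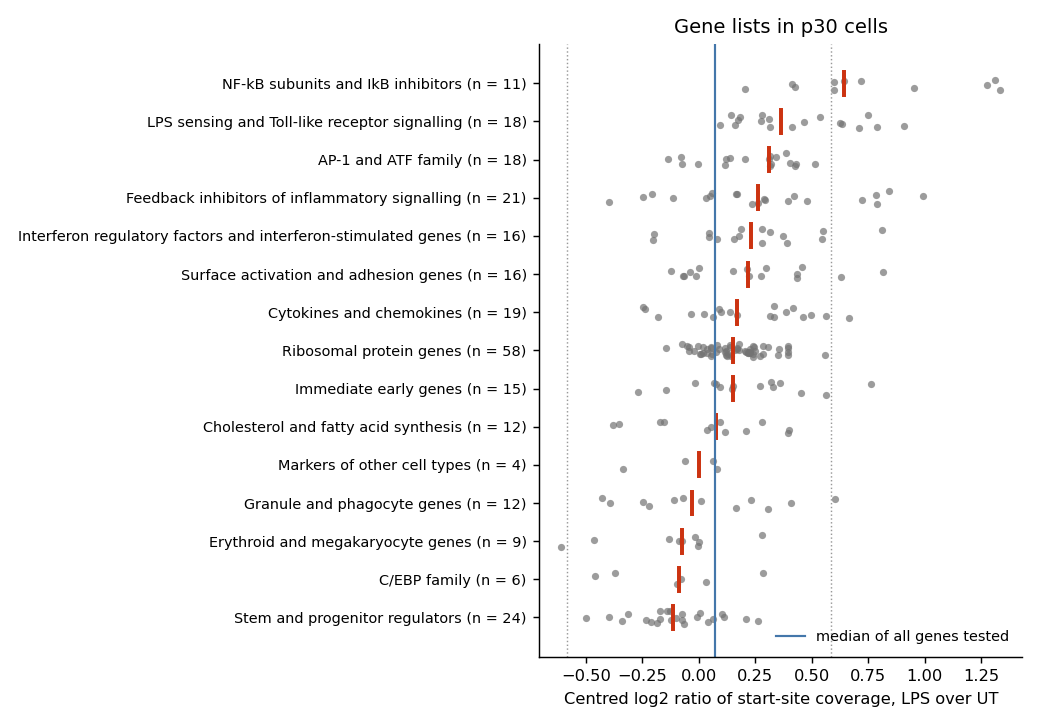
Centred log2 ratio of start-site coverage, LPS over UT, in p30 cells for each gene (gray points, with vertical jitter) of 15 lists, with the list's median as a red bar, the median of all 7034 genes as a blue line and 1.5-fold as dotted lines. The NF-kB list has its median at 0.64 and the stem and progenitor list at -0.11.

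Outside these lists, the highest ratios belonged to Cpd, a carboxypeptidase of the secretory pathway (1731 and 3630, log2 1.19), Dennd4a, an activator of Rab GTPases (5498 and 11340, 1.17), Pim2, a survival kinase (1823 and 3357, 1.01), Gpr84, a receptor for medium-chain fatty acids on myeloid cells (3104 and 5595, 0.98), and Hp, the acute-phase protein haptoglobin (2330 and 4141, 0.96). Pim2 lies on chromosome X, where the median bin was at 0.21. The lowest belonged to Tifab (2337 and 1202, -0.83), a paralog of the NF-kB adaptor Tifa, Pald1 (2981 and 1585, -0.79), Krt80, a keratin (6651 and 3558, -0.78), Igll1, the surrogate light chain gene (5738 and 3270, -0.69), Cdcp2 (2980 and 1745, -0.65), Egfl7 (6891 and 4036, -0.65), Enho (2464 and 1455, -0.63), Sox18, an endothelial factor (5720 and 3381, -0.63), Gp9 and Fut7. Fut7, a fucosyltransferase that makes selectin ligands, had 5750 and 3468 (-0.60). All but Enho, at -0.57, were also past 1.5-fold against bins of like coverage. When scaled by modelled contacts, 7 of these 10 were no longer past 1.5-fold lower, and Tifab (-0.65), Pald1 (-0.60) and Krt80 (-0.59) still were.

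To compare loops, the LPS list was trimmed to the 80489 loops of smallest q, which set its limit at q of 0.00433. The lists then shared 43638 loops with identical bins, 54.2% of each (95% Wilson interval 53.9 to 54.6%), and by construction 36851 were in the UT list only (lost) and 36851 in the LPS list only (gained). Lost loops spanned a median of 55.0 kb, against 35.0 kb for gained and shared loops, and 27.8% of lost loops reached 100 kb against 19.4% of gained. In 84.8% of lost and 91.2% of gained loops both ends were peak bins. Gained loops ended in a bin of at least 1.5-fold higher coverage in 8.45% of cases, lost loops in 2.47% and loops in both lists in 5.96%. A pair that is in 1 list may still have contacts in the other that did not pass the caller's threshold, so lost and gained describe the lists.

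Of 9077 genes with a start-site loop in either list of equal length, 3833 had more loops after LPS, 3362 fewer and 1882 the same number, with a median difference of 0. A gene was called when the difference was at least 3 loops and 1.5-fold after adding 1 to each count. So called, 7.94% (721) were higher and 5.94% (539) lower. Of the called genes with start-site coverage, 573 of 644 higher ones also had a coverage ratio above 0 and 323 of 476 lower ones had one below 0. Over 7034 genes the loop difference and the log2 coverage ratio had a correlation of 0.41, a description across genes that share the same libraries.

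Among genes whose coverage ratio was at least 0.3 (log2) in the same direction, Tnfaip3 and Nfkbia were among the 10 with the largest gains of loops. Tnfaip3 had 7 loops in UT and 20 in LPS, and Nfkbia 9 and 19. In the full lists, Tnfaip3 had 7 and 24, and all 7 UT loops were also in the LPS list. Contacts over these 7 loops were 84 in UT and 133 in LPS, 1.69-fold after scaling (95% interval 1.29 to 2.22). As a no-change value, the ratio of the caller's expected counts was multiplied by the median of contacts over expected over all loops in both full lists (log2 0.13). For Tnfaip3 this gave 1.29-fold, at the lower end of the interval and inside it. Most LPS loops (20 of 24) ran upstream of the gene. The one with most contacts, at 170 kb (chr10:19060001-19065000, exons of the lncRNA genes Gm20139 and Gm67578), had 17 contacts in UT and 36 in LPS, and the bins 40, 45, 50 and 65 kb upstream were listed in LPS only, with 15 to 24 contacts. Nfkbia had 17 loops that were in the full LPS list only, among them a run 10 to 25 kb downstream of the start-site bin (chr12:55510001-55530000) with 50, 28, 21 and 21 contacts. Bins over the neighboring gene Psma6, a proteasome subunit, 90 and 100 kb from the Nfkbia start-site bin, went from 21 to 29 and from 22 to 38, while the Psma6 bin 85 kb away, with 18 contacts in UT, was not listed in LPS. It was 1 of 3 Nfkbia loops listed in UT only.

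**Figure D3:**
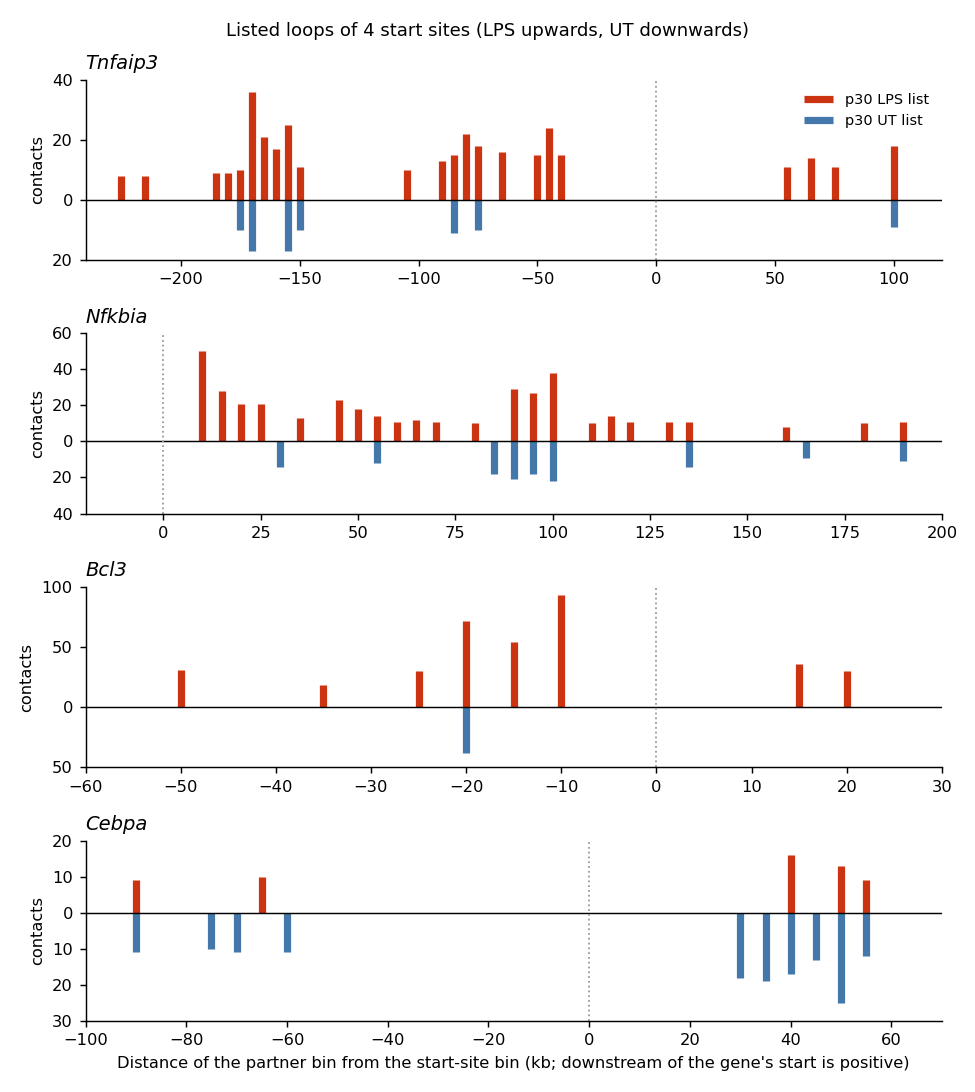
Contacts of each listed loop of the Tnfaip3, Nfkbia, Bcl3 and Cebpa start-site bins by distance of the partner bin (kb, downstream of the start positive), with LPS upwards in red and UT downwards in blue, from the full lists. Tnfaip3 has 24 loops in LPS and 7 in UT, and Cebpa has 5 and 10.

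Further loci of LPS sensing, NF-kB and stress or feedback signaling, chosen after their values were seen, were read loop by loop. In the full lists, Ly96 went from 3 loops to 8, and the 3 loops in both lists had 111 contacts in UT and 178 in LPS, 1.71-fold (95% interval 1.35 to 2.17). Its partners included the start sites of Tmem70 (35 and 58 contacts) and, in LPS only, Eloc (38). Cd14 had 4 and 8 loops, with 98 and 165 contacts over the 3 in both, 1.8-fold (1.4 to 2.3). Cish had 9 and 14, with 304 and 475 over the 8 in both, 1.67-fold (1.44 to 1.92), and its largest count was with an exonic bin of Hemk1 40 kb away (104 and 188). Gadd45b had 6 and 12, with 109 and 172 over the 6 in both, 1.68-fold (1.32 to 2.14), and 10 of its 12 LPS partners were bins over Gng7. Nfkb2 had 245 and 352 over 11 loops in both, 1.53-fold (1.3 to 1.8). The no-change value lay below the interval for Cish (1.39), Gadd45b (1.28) and Nfkb2 (1.21), and inside it for Ly96 (1.43) and Cd14 (1.49). For Bcl3, the 1 loop in both lists had 38 and 72 contacts, 2.02-fold (1.37 to 2.99), and for Nfkbia the 6 loops in both had 98 and 130, 1.41-fold (1.09 to 1.84), with no-change values of 1.84 and 1.2 inside the intervals. Ikbke had 1 loop in the full UT list and 9 in LPS, of which the 1 in both had 13 and 18 contacts (1.48-fold, 0.734 to 2.97), an interval that includes no change, and of its 8 loops listed in LPS only, 1 reached a bin 10 kb away with 74 contacts and 7 reached bins 165 to 285 kb away with 9 to 19.

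Other genes of large gain were Irf2bp2, a corepressor of IRF2 (32 and 46), Ptprc, the leukocyte antigen CD45 (8 and 19), Gart and Son in 1 shared bin (9 and 20), the zinc importer Slc39a4 (12 and 22), the GTPase Rap1b (6 and 16) and Tbc1d9b (24 and 34). Irf2bp2 and Tbc1d9b did not reach the 1.5-fold part of the call. The 8 Ptprc loops in both full lists had 293 contacts in UT and 311 in LPS, 1.13-fold (95% interval 0.965 to 1.33), which includes no change. Slc39a4 coverage was at a log2 ratio of 0.60, or 0.53 against bins of like coverage. In the NF-kB list, Bcl3 went from 1 loop to 7, Ikbke from 1 to 6, Rel from 2 to 5, and Relb had 1 in each list. Nfkb2 (13 and 18) and Rela (10 and 15) were not called, and Nfkbie (IkB epsilon) was called lower (10 and 6), a call that ended in the full lists, while its coverage ratio was 0.41. The list had 4 members called higher and 1 lower of 14, with a mean difference of 2.29 loops, beside 0.22 for all genes. These and the following counts of called members stand beside 7.94% of all genes called higher and 5.94% called lower. The LPS pathway list had 5 higher and 0 lower of 21. These were Ly96 (3 and 7), Cd14 (4 and 8), Map3k8 (1 and 4), Tank (1 and 4) and Ticam1, the adaptor TRIF (7 and 12). The feedback list had 4 higher (Tnfaip3, Dusp16 at 2 and 10, Socs3 at 9 and 16, Cish at 9 and 14) and 2 lower (Zfp36l2 and Socs1 at 6 and 3) of 23. Among 23 cytokine genes with a loop, Ccl4 (4 and 7), Ccl5 (1 and 4) and Il6 (2 and 5) were called higher and Tnfsf9 (7 and 4) lower, the last not in the full lists. Il6 reversed to 1 loop fewer among loops with q under 1e-05, and its 2 loops in both full lists had 23 contacts in UT and 16 in LPS, 0.742-fold (95% interval 0.396 to 1.39). Among other lists, Icam1 (3 and 7), Fosb (3 and 7), Atf4 (3 and 8), Atf1 (3 and 6), Srf (7 and 12), Isg20 (1 and 4), Ncf4 (3 and 10) and Cyba (6 and 10) were called higher. The AP-1 and ATF list had 3 higher and 0 lower of 19, and the interferon list 1 and 0 of 21. The surface list had 2 and 0 of 20, and the granule list 3 and 0 of 15. Of 21 immediate early genes with a loop, 8 had more loops in LPS and 13 fewer, with a mean difference of -0.33, and 2 were called higher and 2 lower. In the full lists their mean difference turned to 0.48, beside 0.81 for all genes, and 3 were called higher and 1 lower. Fos had 13 and 12 loops in the full lists, and over the 9 in both 153 contacts in UT and 144 in LPS, 1.00-fold (95% interval 0.8 to 1.26). Of 66 ribosomal protein genes with a loop, 13 were called higher, led by Rps28 (8 and 18, in a bin shared with Ndufa7), and 5 lower, of which 2 kept the call in the full lists.

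Among genes that lost loops and had a coverage ratio of -0.3 or lower, the largest differences were at Zfp36l2 (37 and 23), Ramp1, part of the CGRP receptor (28 and 16), Igsf8 (24 and 13), Fut7 (14 and 4), Armc12 (21 and 11), Smtn, a smooth muscle protein (13 and 4), Hmga2, a chromatin protein of fetal stem cells (15 and 7), Tns3, a focal adhesion protein (9 and 1), Pacsin1 (10 and 3) and Abca2 (12 and 5). All 10 were called lower in lists of equal length. Their coverage ratios lay between -0.32 and -0.60, where the choice of genes had required -0.3 or lower. In the full lists, where LPS has more loops, 5 kept the call (Fut7, Smtn, Tns3, Pacsin1 and Abca2) and 5 did not, among them the 3 largest losses, Zfp36l2 (37 and 27), Ramp1 (28 and 19) and Igsf8 (24 and 17). In the full lists Fut7 had 14 and 8 loops, and over the 7 in both 153 contacts in UT and 111 in LPS, 0.774-fold (95% interval 0.606 to 0.987). Its loops ran to the neighboring lipocalin and prostaglandin synthase genes, where the bin of Ptgds 45 kb away had 33 and 17 contacts. Zfp36l2 had 510 and 418 contacts over the 23 loops in both full lists, 0.874-fold (0.768 to 0.995). The no-change value was 0.801-fold for Fut7 and 0.968-fold for Zfp36l2, both inside the interval of the contacts, and 0.822-fold for Ramp1, inside 0.715 to 0.921. For Igsf8 the 10 loops in both lists had 314 and 218 contacts, 0.741-fold (0.623 to 0.880), with a no-change value of 1.05 above the interval. Of 23 loci with loops in both lists that were read this way, chosen after their values were seen, the no-change value was outside the interval in 5, with more contacts than it in 4 (Cish, Gadd45b, Gpr84 and Nfkb2) and fewer in 1 (Igsf8).

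In lists of equal length, 4 of 6 C/EBP genes and 15 of 25 stem and progenitor genes had fewer loops in LPS, beside 3362 of 9077 genes in all. Their mean differences were -1 and -0.76 loops, and -0.17 and -0.04 in the full lists. Cebpa had 10 loops in UT and 5 in LPS, and was called lower. Of 6 UT loops not listed in LPS, 3 reached bins 30, 35 and 45 kb downstream with 18, 19 and 13 contacts, and 3 reached bins over Cebpg and Pepd upstream with 10 or 11 contacts. The bin 50 kb downstream (chr7:34865001-34870000) had 25 contacts in UT and 13 in LPS, and its own coverage ratio was -0.67. Over the 4 loops in both lists Cebpa had 65 and 47 contacts, 0.771-fold (95% interval 0.531 to 1.12), which includes both 1 and the no-change value of 0.875. The C/EBP list had 3 members called lower (Cebpa, Cebpe at 5 and 2, Cebpg at 4 and 1) and 0 higher of 6, and Cebpb had 13 and 18. In the full lists Cebpe lost the call and Cebpb (13 and 21) was called higher. Cebpg reversed to 1 loop more among loops with q under 1e-05. The stem and progenitor list had 7 called lower of 25, beside 5.94% of all genes, among them Erg (10 and 5), Cbfa2t3 (9 and 4), Ikzf2 (6 and 2), Etv6 (7 and 4), Hhex (8 and 5) and Ikzf1 (5 and 2), and 2 higher, Runx1 (7 and 11) and Cd34 (7 and 11). In the full lists 4 of the 7 kept the call, Erg (10 and 10), Cbfa2t3 (9 and 6) and Etv6 (7 and 5) did not, and 3 members were called higher. Cd34 reversed to 1 loop fewer among loops with q under 1e-05. Myc had 1 loop in UT and 0 in LPS. Outside this list, Pf4, the platelet factor gene, had 4 and 0, the transferrin receptor gene Tfrc 7 and 4, the cholesterol exporter Abcg1 12 and 7, the stress genes Ier5 and Gadd45g 9 and 4 and 4 and 0, and the endothelial Cdh5 4 and 0, all called lower, of which Tfrc, Abcg1 and Ier5 were not in the full lists. The erythroid factor Klf1 (2 and 5) and the Fc receptor gene Fcgr3 (7 and 11) were called higher, and both reversed to 1 loop fewer among loops with q under 1e-05.

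At 47004 loops in both full lists, contacts were compared after scaling on the median ratio. A loop was called when it differed by 1.5-fold and the 95% Wilson interval of the LPS share left out the null share. By this rule 3.24% (1524) were higher and 1.8% (844) lower, and the interval alone left out the null share in 6.74% of loops, where a 95% interval does so in about 5% of loops that do not differ. Over all these loops the log2 contact ratio had an SD of 0.39, no larger than the 0.43 for counting error alone. Under exact binomial tests (two-sided, Benjamini-Hochberg over all loops), an alternative added after seeing the data that compares the pooled libraries and not the conditions, 175 loops were higher and 25 lower at an adjusted p under 0.05. Contact ratios and coverage ratios of the joined bins had a correlation of 0.51 across loops, a description, since the joined bins share their contacts.

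Of the 175 higher loops, 60 had a protein-coding start site at an end, and of the 25 lower loops 7 did. Spred1, an inhibitor of Ras and ERK signaling, was joined to an intergenic bin 130 kb away (chr2:116820001-116825000) by 10 contacts in UT and 37 in LPS, 3.95-fold (95% interval 1.99 to 7.83). Gadd45b and an intron of Gng7 55 kb away had 15 and 51 contacts, 3.63-fold. Rilpl2 and Tmed2 were joined by 15 and 51. The start site of Nfkb2 and the bin of Psd and Fbxl15, 25 kb away, had 25 and 59, and Nfkbiz and a bin 15 kb away 36 and 79. Within the chemokine cluster, the bin of the Ccl3 gene body (chr11:83535001-83540000) and an intergenic bin 90 kb away (chr11:83625001-83630000) had 20 and 62, 3.31-fold. Near Cd69, an early activation marker, bins 30 kb apart had 21 and 60. Pim1, a kinase gene induced by cytokines, was joined to a bin 90 kb away by 106 and 214.

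Loops that lost contacts were fewer. A pair across Micall2 and Ints1 (chr5:139700001-139705000 and chr5:139730001-139735000) had 83 contacts in UT and 17 in LPS, 0.218-fold (95% interval 0.130 to 0.366). An intergenic bin near Gpx3 and an exonic bin of Tnip1, 45 kb apart, had 56 and 14. S100a6, a calcium-binding protein, and the bin of S100a2 and S100a3 had 55 and 17. A loop from Nfix, 85 kb long, had 48 and 15. Scd2, a fatty acid desaturase, and a bin 25 kb away had 49 and 16. For these 5 pairs the ratio of contacts over expected, LPS over UT and not centred, lay between -1.73 and -1.06 on the log2 scale.

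Runs of adjacent bins past 1.5-fold in the same direction numbered 196 higher and 39 lower, and 143 of the 196 and 33 of the 39 held no protein-coding start site. Of single peak bins, 16.8% hold one, but a run spans adjacent bins, so this share is not a like background for runs. Bin by bin, start sites lay in 15.7% of the higher bins and 6.00% of the lower bins. The highest-ranked was chr7:19535001-19585000, 50 kb over Bcl3 and the lncRNA gene Gm16175, with 25583 contacts in UT and 51826 in LPS, 2.21-fold. The bin 10 kb upstream of the Bcl3 start was joined to it by 93 contacts in LPS and not listed in UT. The longest was chr11:86485001-86550000, 13 bins inside Vmp1, at 77900 and 122705 (1.72-fold). This gene also holds Mir21a near its end (chr11:86474893-86474984, minus strand), whose bin stood at a log2 ratio of 0.20 with 13 loops in UT and 19 in LPS. A loop from the Mir21a bin into the run, 45 kb long, had 36 and 76 contacts. The mature miR-21a-5p, taken from RefSeq, is printed because its gene lies beside the longest run, with the seed (bases 2 to 8) in capitals.
mmu-miR-21a-5p: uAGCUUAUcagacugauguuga

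Other runs lay next to signaling genes. Sums of loop contacts below run over the loops listed in each full list, so a pair that is not listed adds 0, and the number of loops is given beside each sum. A run of 8 bins from Fgd2 towards Pim1 (chr17:29590001-29630000) had 40434 and 70978 contacts of coverage, and its loops to the Pim1 start site summed to 304 contacts in UT (7 loops) and 584 in LPS (8 loops). The 6-bin run chr2:116810001-116840000, intergenic, had 24215 and 41187 and reached Spred1 by 39 contacts in 3 loops in UT and 135 in 6 loops in LPS. A 5-bin run inside Jade2 (chr11:51715001-51740000) reached the Jade2 start site by 1 loop of 22 contacts in UT and 5 loops of 209 in LPS. A 6-bin run over Acsl5, Zdhhc6 and Vti1a (chr19:55275001-55305000) reached Acsl5, a fatty acid-CoA ligase, by 12 contacts in 1 loop in UT and 80 in 4 loops in LPS. Runs inside Notch1 (chr2:26370001-26385000, 11002 and 22184) and Rasgef1b (chr5:99510001-99525000, 5931 and 12078) had over 2-fold the UT coverage after LPS. Runs over Ikbke, Relb, Cish, Cd14 and Osm held those genes' start sites. An intergenic 3-bin run of the chemokine cluster (chr11:83620001-83635000) reached Ccl3 by 54 contacts in UT and 110 in LPS, in 3 loops each, and Ccl4 by 25 in 2 loops and 53 in 3.

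The highest-ranked lower run was chr11:54795001-54820000, 5 bins over Gpx3, the extracellular glutathione peroxidase, and the end of Tnip1, an inhibitor of NF-kB, with 14481 contacts in UT and 6352 in LPS (0.479-fold). Next came 8 bins over Krt80 (chr15:101245001-101285000, 44876 and 25217), 6 bins inside Foxp4 (chr17:48185001-48215000, 33056 and 18252), 5 bins of Prkcd (chr14:30320001-30345000, 17333 and 9575) and 4 bins near Sik1 (chr17:32040001-32060000, 28273 and 15733). Loops from the Sik1 run to the Sik1 start site summed to 147 contacts in 4 loops in UT and 68 in 2 loops in LPS. Loops from the Prkcd run to the Prkcd start site summed to 47 contacts in 1 loop in UT and 112 in 3 loops in LPS. When scaled by modelled contacts, 3 lower runs were called. An NF-kB motif was found in 47.4% of the bins past 1.5-fold higher, 46.8% of those lower and 38.9% of all peak bins. The AP-1 motif TGANTCA was found in 83.2%, 74.8% and 77.1%, the C/EBP motif TTGCNNAA in 87.6%, 80.4% and 84.7%, and the interferon-stimulated response motif in 54.5%, 33.2% and 48.1%. Median GC content was 44.6% in higher, 50.4% in lower and 46.5% in all peak bins, and its part in these shares was not tested.

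The p42 libraries, which share no library with p30, gave the same comparison once more. Across 31321 peak bins in all 4 lists, the p30 and p42 log2 ratios had a Pearson correlation of 0.28 and a Spearman correlation of 0.18, as a description across bins. Of the 855 of these bins past 1.5-fold higher in p30 cells, 80.0% were above 0 in p42 cells, where 46.1% of all bins were, with a median of 0.29, and 171 were past 1.5-fold higher and 2 past 1.5-fold lower. Of 162 lower bins, 80.9% were below 0 in p42, with a median of -0.29, and 28 were past 1.5-fold lower and 6 past 1.5-fold higher. In p42 cells, 623 bins were higher and 496 lower of 40939.

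**Figure D4:**
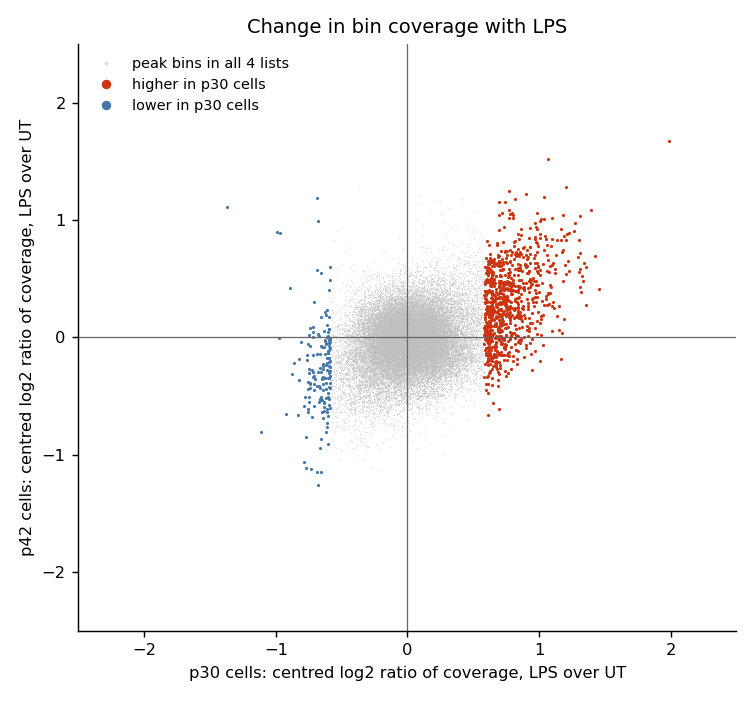
Centred log2 ratio of bin coverage, LPS over UT, in p30 cells (horizontal) and p42 cells (vertical) for the 31321 peak bins in all 4 lists, with bins past 1.5-fold higher (red, 855) and lower (blue, 162) in p30 cells. Of the red bins 80.0% lie above 0 in p42 cells and of the blue bins 80.9% below.

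Gene by gene the NF-kB list had a median log2 ratio of 0.64 in p30 and 0.16 in p42 cells, beside 0.07 and -0.15 for all genes. Tnfaip3 stood at 0.99 in p30 and 0.60 in p42, Bcl3 at 1.34 and 0.48, Ikbke at 1.31 and 0.59, Nfkb2 at 0.95 and 0.34, and Nfkbia at 0.60 and -0.15. The deposited counts behind these ratios are not centred, and the median bin had an uncentred log2 ratio of -0.58 in p42 and -0.13 in p30 cells. Nfkbia had 2707 contacts of coverage in p30 UT and 5859 in p42 UT, and 3757 and 3521 after LPS. Bcl3 had 3748 in p30 UT and 5360 in p42 UT, and 8675 and 4993 after LPS. With all 4 lists trimmed to 78591 loops, Tnfaip3 went from 7 to 20 in p30 and from 9 to 18 in p42, Nfkbia from 9 to 19 and from 17 to 20, Bcl3 from 1 to 7 and from 3 to 6, Ikbke from 1 to 6 and from 3 to 9, and Cebpa from 10 to 4 and from 10 to 5. Whether the LPS response differs between the isoforms was not tested, since each list pools its replicates. The p42 UT list held 158233 loops and the p42 LPS list 78591, and the part of this gap in the p42 ratios was not tested.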

How the data were processed

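H3K27ac HiChIP was performed by the authors in duplicate with an MNase kit. Per the study's methods, reads were mapped to mm39 with BWA-MEM (0.7.17 in the submitters' processing notes), ligation pairs were parsed and deduplicated with pairtools, and loops were called with FitHiChIP. How duplicates were pooled was not given in the sources used here. The 4 deposited lists (26 columns, 11 used, unmapped columns 0) hold, for each pair of 5 kb bins with q under 0.01, the contact count, the expected count under the authors' model, the model's contact probability (a fraction), the q-value, and the coverage, bias and peak flag of each bin. The 4 lists hold 75822 bins between them, and bins in more than 1 list had the same peak flag in each (0 conflicts). All of these are the authors' deposited values, and p-values were not recomputed.

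Bins were joined to start sites of 21738 protein-coding genes of GENCODE M39 on GRCm39, the assembly of mm39. Each gene had 1 start, that of its Ensembl canonical transcript. Modelled contacts are expected counts over probability. Depth limits single loops, with a median of 20 contacts in UT and 19 in LPS. Lists were trimmed to equal length by smallest q, with ties broken by more contacts. Wilson intervals are at 95%. Named genes were, in each direction, the 10 of largest loop difference with a coverage ratio of at least 0.3 (log2) the same way, the 10 of largest coverage ratio with mean coverage of at least 500, a panel of inflammatory and progenitor genes, and called members of 15 gene lists. Runs were ranked by mean log2 ratio times the square root of the number of bins. Loops singled out for contacts were chosen after their values were seen. Members and lists were chosen with earlier results of these data known. Motifs were searched on both strands. Calls were tested on simulated data. Python 3.11.15, numpy 2.4.6, pandas 2.3.3 and scipy 1.17.1 were used. Some genes and 1 promoter sequence that the naming rule selects are not reported here.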

Additional observations from a re-analysis of the deposited data

Results flagged for a closer look

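The deposited number of loops moved in opposite directions with LPS in the 2 lines. In p30 cells it went from 80489 to 94609, a log2 ratio of 0.23, and in p42 cells from 158233 to 78591, a log2 ratio of -1.01, so the ratios differed by 1.24. The number of genes with a start-site loop went from 8093 to 8423 in p30 cells (0.06) and from 9744 to 7628 in p42 cells (-0.35), a difference of 0.41. Neither difference was tested, since each list pools its replicates.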

How the results depend on the processing

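No paired analysis was possible because the replicates were pooled in the deposited lists, and for the same reason no replicate could be left out. The share of UT loops in the LPS list, 54.2%, became 58.4% with the full lists, 55.0% at q under 0.001, 56.3% at q under 1e-05, 51.7% at 20 kb or more, 50.3% when ranked by contacts over expected and 81.8% with 1 bin of slack. Scaling by modelled contacts gave 4372 loops with more contacts and 231 with fewer (1524 and 844 as reported), 2569 higher and 34 lower bins (932 and 250) and 519 higher and 3 lower runs (196 and 39). For contacts, the expected counts as null gave 211 lower loops, centred expected counts 782 higher and 484 lower, and the binomial tests 175 and 25. The lower fold threshold tried gave 3977 higher and 3171 lower bins. Of bins higher in p30 cells 90.8% were higher in p42 cells against bins of like coverage, and of lower bins 94.7% were lower, or 89.4% at a mean coverage of at least 1000. Genes called for start-site loops were 1249 higher and 308 lower with the full lists, 1104 and 913 with 1 bin on each side, 287 and 191 at q under 1e-05, and 255 and 113 at a difference of at least 5 loops (721 and 539 as reported). In the 6 inflammatory lists the full lists gave 1 gene called lower (4 as reported). At q under 1e-05 the loop difference reversed to -1 at Fcgr3, Cd34, Rpl11, Il6 and Klf1 and to 1 at Cebpg. The cause of these changes was not tested. Of 41 named genes called for coverage, 34 stayed called against bins of like coverage and 34 when scaled by modelled contacts. Of 87 called for loops, 69 stayed called with the full lists and 25 at q under 1e-05. With a median of 19 to 20 contacts a loop, most single loops can show only large differences.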

Other observations

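The loci of other microRNAs known in inflammation were also looked up. The bin of Mir155 was in the LPS list only, with 1147 contacts of coverage and 1 loop, and the bin of Mir146 was in neither list.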
